A study of Fukomys damarensis and Heterocephalus glaber and Cavia porcellus with 28 samples.

Results

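Gene expression in the heart of the naked mole-rat (Heterocephalus glaber) was compared with that in the heart of the guinea pig (Cavia porcellus). The 3 naked mole-rats were males aged 13, 15 and 17 months, and the 3 guinea pigs were males aged 2.3 months. The labels record no treatment, strain or genotype for either species, and each library came from a separately named animal. Age and species cannot be told apart, since no naked mole-rat was as young as the guinea pigs. The same series holds heart libraries of the Damaraland mole-rat and the mouse and liver libraries of all 4 species, and it addresses how expression evolved in mole-rats. In both tissues the Damaraland mole-rats were aged 36 or 48 months and the mice 2 months. The naked mole-rats that gave livers were aged 13 to 17 months and the guinea pigs 2.3 months. Age thus also differs wherever these species or livers are set beside each other. RNA was total RNA from frozen tissue, depleted of ribosomal RNA. The genes described are the 10691 of 13928 in the heart table whose mean over the 6 libraries was at least 1 above the table's lowest value, and the other 3237 were not tested. The genes nearest to that limit of 6.3645 were Ccdc173 and Pipox just inside it, with means of 6.3648 and 6.3657, and Rgs14 and Lsmem1 just outside it, with means of 6.3641 and 6.3636.

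Naked mole-rats are African rodents that live underground in large colonies, tolerate low oxygen, keep a low and variable body temperature and live long for their size. The guinea pig is a South American relative in the same rodent suborder and lives above ground. Heart muscle contracts when calcium released inside the cell lets myosin thick filaments pull on actin thin filaments. It draws its energy mainly from oxidation of fatty acids, with glucose, lactate and ketone bodies as other fuels, and buffers its ATP with creatine phosphate.

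Values are the deposited variance-stabilised values, a scale close to log2 for abundant genes, on which a gene with no reads has 5.3645. A difference is the naked mole-rat mean minus the guinea pig mean on this scale, with its standard error (SE) from limma. The scale compresses rare genes, since a doubling from 10 scaled reads moves the value by 0.282, from 100 by 0.679 and from 1000 by 0.946. Scaled reads are read numbers recovered from the values and divided by the library's size factor. No correction for gene length was made here, so the level of 1 gene is not compared with that of another. Whether the matched transcripts of a gene differ in length between the species, or were corrected for it, is not given in the sources used here. Any such difference can be part of the values compared. Reads recovered over the 13928 genes of the table numbered 19096882, 22526618 and 4089633 for naked mole-rat replicates 1 to 3. They numbered 20551768, 16129660 and 16689154 for guinea pig replicates 1 to 3. Reads outside these genes are not counted. Naked mole-rat replicate 3 was the shallowest library by this count and stood apart. Its Spearman correlations across genes with the other naked mole-rat libraries were 0.919 and 0.917, against 0.984 between those 2 and 0.972 to 0.975 among the guinea pigs. Between the species they were 0.650 to 0.686.

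The heart label was checked with marker genes. The 6 cardiomyocyte markers summed to between 659774 and 1071426 scaled reads in the naked mole-rat libraries and to between 787974 and 969940 in those of the guinea pig. The lung markers Sftpc and Sftpb were at or near 0 in all 6. Reads of atrial genes differed between libraries. Myl4, the atrial light chain, had 622, 1031 and 4601 scaled reads in naked mole-rat replicates 1 to 3 and 113, 6229 and 48.9 in guinea pig replicates 1 to 3. Naked mole-rat replicate 3 and guinea pig replicate 2 carried the most reads of this gene in their species. The fit without both is given below for the calls that it alone ended and for some other genes.

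A gene was called when limma's adjusted p was under 0.05 and the difference was at least 1 in either direction. By this rule 3652 of the 10691 genes were called, or 34.2%. Of these, 1801 (16.8% of genes tested) were higher and 1851 (17.3%) were lower in the naked mole-rat, and the median difference over all genes tested was 0.005. The median size of a called difference was 1.56. A difference of at least 3 was reached by 139 genes that were higher and 165 that were lower. The 3 values of one species all lay beyond the 3 of the other for 6942 genes, or 64.9% of those tested, and for 3607 of the called genes. The remaining 45 called genes had overlapping groups.

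**Figure D1:**
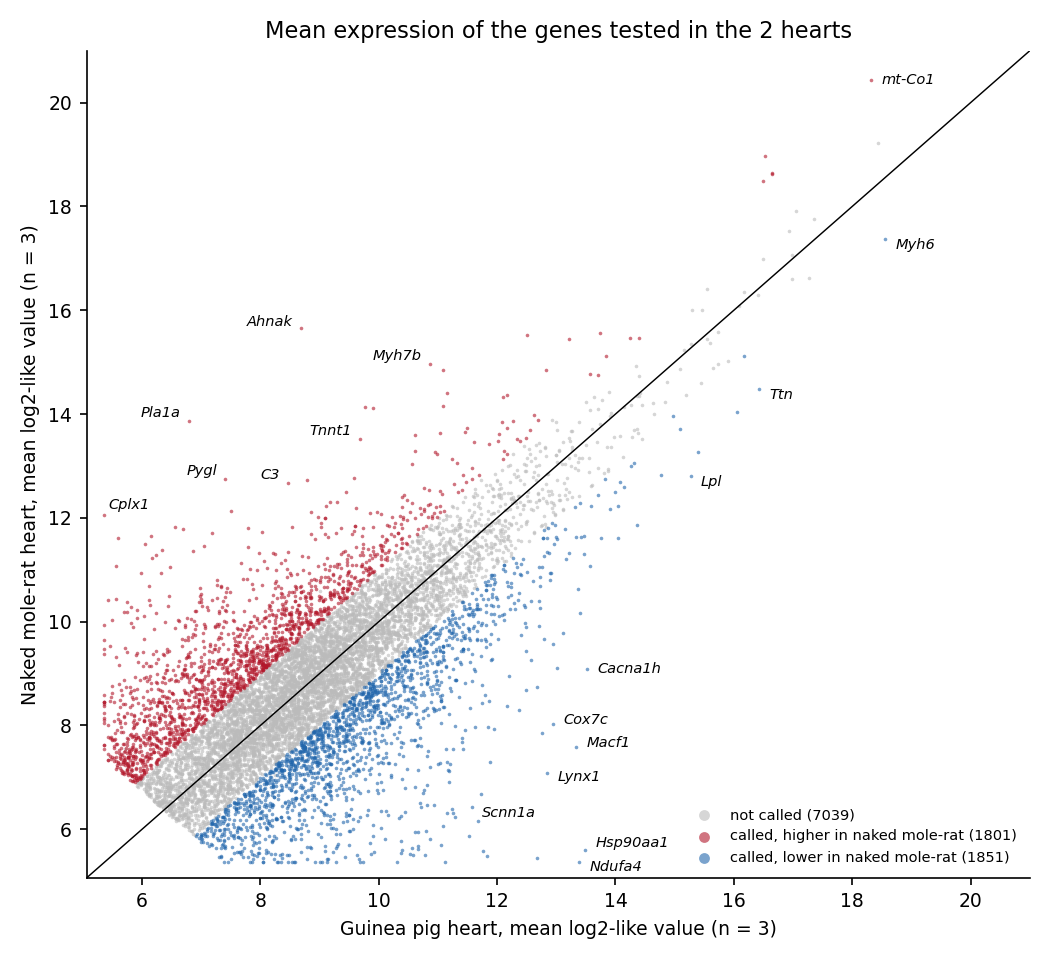
Each point is 1 of the 10691 genes tested, with its mean value over 3 guinea pig hearts on the horizontal axis and over 3 naked mole-rat hearts on the vertical axis, both log2-like. Red points are the 1801 genes called higher and blue points the 1851 called lower in the naked mole-rat, the line marks equal means, and named points include Ahnak and Pla1a far above the line and Ndufa4 and Macf1 far below it.

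The largest differences were ranked among called genes above the limit in both species whose groups did not overlap. That separation was therefore set by the choice of genes. Pla1a, a phospholipase that acts on phosphatidylserine, had the largest excess in the naked mole-rat heart among them. Its values were 13.84, 13.64 and 14.10 in the naked mole-rats and 6.46, 7.26 and 6.69 in the guinea pigs. The difference was 7.06 ± 0.27 (SE, limma adjusted p = 3.56e-12), or 311-fold in mean scaled reads. Ahnak, a very large scaffold protein under the cell membrane, had 15.41, 15.63 and 15.96 against 8.48, 8.83 and 8.77. The difference for Ahnak was 6.97 ± 0.22 (limma adjusted p = 4.65e-13). The same gene was higher by 7.06 in naked mole-rat liver, and its heart means were 15.13 in the Damaraland mole-rat and 15.14 in the mouse, so the guinea pig value was the low one of the 4 species. Pla1a was higher in naked mole-rat liver too, by 4.2, but its heart means were 8.74 in the Damaraland mole-rat and 7.31 in the mouse.

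The next in size was Pygl, the glycogen phosphorylase known as the liver form. It had 12.85, 12.49 and 12.90 in the naked mole-rats and 7.27, 7.83 and 7.12 in the guinea pigs. Its difference was 5.34 ± 0.46 (limma adjusted p = 4.14e-08), with a mean of 14.89 in Damaraland mole-rat heart and 7.58 in mouse heart. The other genes of this group had differences of 4.43 to 5.26. They were Gpr158, an orphan G protein-coupled receptor best known from brain, Pcp4l1, a small relative of a calmodulin regulator, Spint2, an inhibitor of membrane serine proteases, Snph, which anchors mitochondria to microtubules, Tmem179, a membrane protein, Wdr62, a spindle pole protein, and Sdk1, a cell adhesion protein. Wdr62 was uneven, with 10.90, 10.84 and 12.36 in the naked mole-rats, the highest in replicate 3. Sdk1 was even, with 11.54, 11.36 and 11.49 against 6.85, 7.09 and 7.18, and it was also higher in naked mole-rat liver, by 4.28.

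For lower genes the ranking again took only called genes above the limit in both species with groups apart. Of these, Lynx1, a small protein that modulates nicotinic acetylcholine receptors, was the farthest below the guinea pig. It had 7.32, 6.74 and 7.18 in the naked mole-rats and 13.00, 12.85 and 12.70 in the guinea pigs. The difference was -5.77 ± 0.23 (limma adjusted p = 5.13e-12), and mean scaled reads were 67.4 against 7316. Macf1, a giant protein that links microtubules to actin, had 7.59, 7.57 and 7.59 against 13.26, 13.50 and 13.24. It was also lower in naked mole-rat liver, where the difference was -6.58. Cacna1h, a T-type calcium channel, had 8.82, 8.84 and 9.61 in the naked mole-rats and 13.74, 13.42 and 13.41 in the guinea pigs, a difference of -4.43 ± 0.23 (limma adjusted p = 1.04e-10). Its means of 7.87 in the Damaraland mole-rat and 8.10 in the mouse put the guinea pig alone at the high end. Scnn1a, a subunit of the epithelial sodium channel, showed the same order, with means of 6.43 and 11.57 in the naked mole-rat and guinea pig and 5.80 and 6.0 in the Damaraland mole-rat and mouse.

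Cd74, the invariant chain of antigen-presenting cells, had 6.97, 8.07 and 8.50 in the naked mole-rats against 13.00, 12.38 and 12.85. The difference was -4.90 ± 0.29 (limma adjusted p = 5.13e-10). The leukocyte marker Ptprc was also at lower values there, with 23.7 to 55.6 scaled reads against 82.0 to 205, and the summed leukocyte markers were 212 to 515 in the naked mole-rats and 518 to 784 in the guinea pigs; their part in the Cd74 difference was not tested. In bulk tissue, fewer cells of a type and less RNA per cell cannot be told apart. The remaining genes of this group were Rps6kl1, a kinase relative, Cox7c, Kcnj4, an inward rectifier potassium channel, Pon3, a paraoxonase, and Ppp2r2c, a regulatory subunit of protein phosphatase 2A, with differences from -5.05 to -4.47.

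Part of the differences concerned genes that were nearly unread in 1 species. Of the genes tested, 1038 had a mean under the limit in 1 species only, and 763 of them were called, which the choice of genes favours, since such a gene passed only through the other species. Among list members named below, Myoz1, Rgs6, Adra1b, Aldoc, Pfkfb1, Gys2, Slc2a5, Ampd1, Dnaja1, Npas2 and Atf3 passed in this way. The guinea pig was the low species for 427 of the called genes and the naked mole-rat for 336. Of these, 217 were also under the limit in guinea pig liver and 218 in naked mole-rat liver. The other species was above the liver limit for 134 of the 217 and 153 of the 218, and the rest were under it in both livers. Ndufa4, a small subunit of the respiratory chain, had 0 reads in all 3 naked mole-rat hearts and 10368, 7799 and 14829 scaled reads in the guinea pigs. With 3 counts allowed over the 3 naked mole-rat libraries, it was at least 10978-fold lower there, counting error only. It also had 0 reads in all 4 naked mole-rat livers. The chaperone Hsp90aa1 had 1.69, 0 and 3.70 scaled reads against 9808, 12014 and 12551, and the ribosomal protein genes Rpl4 and Rpl8 had at most 1.30 against at least 2954. The Golgi protein gene Golga4 had at most 2.59 against at least 3037. All 5 were likewise near 0 in naked mole-rat liver, while their Damaraland mole-rat heart means lay between 11.82 and 12.81. How reads were assigned to genes in each species is not given in the sources used here, and its part in such zeros was not tested.

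In the other direction, Cplx1, a protein of vesicle fusion, had 7013, 5466 and 1867 scaled reads in the naked mole-rat hearts and 0 reads in every guinea pig heart. With 3 counts allowed over the guinea pig libraries, it was at least 6554-fold higher. Glp2r, the receptor of the gut hormone GLP-2, had 2888, 2420 and 4004 scaled reads against 0.650, 2.30 and 0.788, and it was near its level of no reads in the Damaraland mole-rat and mouse, with means of 5.58 and 5.43. Its liver means did not differ in this way, with 105 scaled reads in the naked mole-rat and 89.8 in the guinea pig. Bod1l, which protects replication forks, was near the floor in guinea pig heart and liver alike. Myh8, the perinatal skeletal myosin, and Rgs6, a regulator of muscarinic signalling, made up the 5 with the highest naked mole-rat means. Myh8 had 11.29, 11.48 and 12.18 against 6.08, 5.92 and 6.47, a difference of 5.50 ± 0.28 (limma adjusted p = 6.53e-11).

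In the contractile apparatus, of 14 thick filament and M-band genes tested, 1 was higher and 2 were lower (21.4% called, median difference 0.32), against the 34.2% of all genes. Myh7, the slow cardiac myosin heavy chain, had 18.91, 19.52 and 19.27 in the naked mole-rats and 17.52, 18.63 and 19.15 in the guinea pigs. The groups overlapped, and the difference of 0.80 ± 0.45 was not called (limma adjusted p = 0.133). It was 1.16 and called without guinea pig replicate 3 (adjusted p = 0.0489), and 0.34 without guinea pig replicate 1. Myh6, the fast cardiac form, had 18.98, 16.27 and 16.90 against 18.47, 18.67 and 18.52. Naked mole-rat replicate 1 was above every guinea pig and the other 2 were below them. The difference of -1.17 ± 0.46 was called (limma adjusted p = 0.038), but it rested on single libraries. It was -1.96 without naked mole-rat replicate 1 and still called. It was -0.61 without replicate 2 (adjusted p = 0.246) and -0.92 without replicate 3 (0.136), and adjusted p was 0.0639 to 0.0916 without any 1 guinea pig. With only the 6 libraries in the fit, adjusted p was 0.126, and it was 0.108 when the replicate number was added to that fit as a block. Myh7b, an ancient slow-type myosin, had 14.96, 15.24 and 14.69 against 10.90, 10.56 and 11.13. These groups were far apart, with a difference of 4.10 ± 0.63 (limma adjusted p = 3.08e-05) and 17.8-fold more scaled reads. Ttn, the giant spring protein of the sarcomere, was lower, with 14.46, 14.48 and 14.52 against 16.35, 16.50 and 16.44, or 3.86-fold fewer scaled reads. Myl2, the ventricular light chain, had means of 17.76 ± 0.17 and 17.35 ± 0.46 (SD, n = 3 each) and was not called.

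Of 14 thin filament genes, 4 were higher and 1 was lower (35.7% called, median 0.14). Tnnt1, the slow skeletal troponin T, had 14.02, 13.80 and 12.72 in the naked mole-rats and 9.17, 9.46 and 10.43 in the guinea pigs. Every naked mole-rat was above every guinea pig, by 3.82 ± 0.36 in the mean (limma adjusted p = 1.31e-07). Tnni1, the slow troponin I that the fetal heart uses, had 12.06, 12.18 and 12.34 against 9.71, 10.44 and 8.68, a difference of 2.58 ± 0.55 (limma adjusted p = 0.000632). The adult cardiac forms were not called. Tnni3 had 14.59, 14.51 and 14.12 against 14.49, 14.34 and 14.43, a difference of -0.02 ± 0.20 (limma adjusted p = 0.95), and Tnnt2 had a difference of 0.19 ± 0.39 (limma adjusted p = 0.69). The sign of both flips with the scaling of the libraries or with single libraries. Neb, the ruler of skeletal thin filaments, was higher by 2.04 ± 0.28, and Acta1, skeletal actin, by 1.72 ± 0.61 (limma adjusted p = 0.022). The Acta1 call is lost without naked mole-rat replicate 1 (adjusted p = 0.0628) or guinea pig replicate 1 (0.0993). Actc1, cardiac actin, had 16.32, 16.58 and 17.00 against 17.20, 17.41 and 17.20, a difference of -0.64 that was under the size threshold and was not called (limma adjusted p = 0.0503). Under quantile normalisation it was -1.22 and called. Lmod3, which nucleates actin filaments, was the lower gene of the list, by -1.84 ± 0.19.

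Reads of skeletal muscle markers also differed. Of 7 such markers in the table, 4 were tested. Of these, Myh1, Myh2 and Myh4 passed the filter only through the naked mole-rat, which favours their call as higher, and Ryr1, the 1 marker above the limit in both species, was not called (-0.26 ± 0.24). The fast myosins Myh1, Myh2 and Myh4 had 82.0 to 370 scaled reads in the naked mole-rats and at most 3.25 in the guinea pigs. The summed markers ran from 357 to 696 against 51.2 to 117, whereas Tnnt3, fast troponin T, had 10.1, 15.6 and 0 scaled reads against 0 in every guinea pig. Their part in the higher values of Tnnt1, Tnni1, Neb, Acta1 and Myh8 was not tested.

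**Figure D2:**
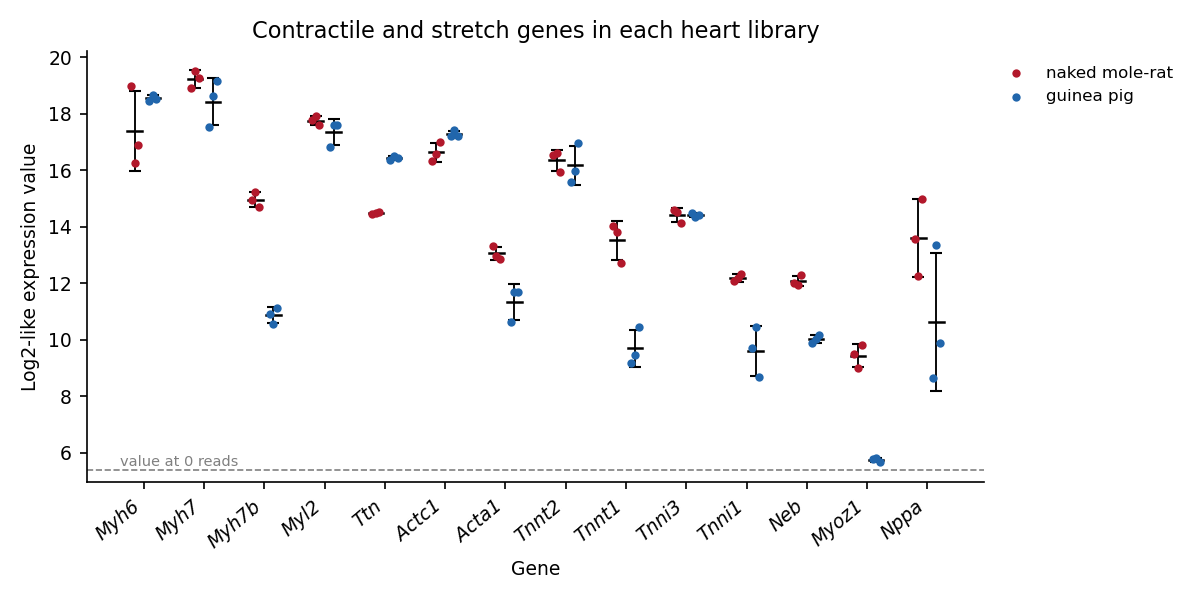
Log2-like value of 14 contractile, Z-disc and stretch genes in each heart library, with red points for the 3 naked mole-rats, blue points for the 3 guinea pigs, and the mean and SD as black bars; the dashed line is the value at 0 reads. The species lie apart for Myh7b, Ttn, Tnnt1, Tnni1, Neb and Myoz1 and overlap for Myh6, Myh7, Myl2, Tnnt2, Tnni3 and Nppa.

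The Z-disc, where thin filaments are anchored, had 5 of 19 genes higher and 3 lower (42.1% called, median 0.40). Among the 18 above the limit in both species, 4 were higher and 3 lower (38.9% called, against 29.9% of all such genes). Myoz1, a calcineurin-binding protein typical of fast skeletal fibres, had 9.48, 8.99 and 9.80 in the naked mole-rats against 5.77, 5.80 and 5.65, near the floor in the guinea pigs. Its difference was 3.69 ± 0.21 (limma adjusted p = 2.22e-10). Ankrd1, a stretch-responsive regulator, was higher by 2.22 ± 0.33 and Nexn, an actin-binding Z-disc protein, by 2.20 ± 0.33. Macf1, given above, belongs to this list, and Myot, an actin-bundling protein, was lower by -1.59 ± 0.34. Fhl2, a LIM-domain adaptor, had 12.11, 12.20 and 10.56 against 14.10, 13.73 and 13.42. Its difference of -2.12 ± 0.60 was called (limma adjusted p = 0.00559), but adjusted p was 0.0666 without naked mole-rat replicate 3 and guinea pig replicate 2 together.

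At the intercalated disc, which joins heart cells end to end, 3 of 12 genes were higher and 2 lower (41.7% called, median -0.28). Ctnna1, alpha-catenin of adherens junctions, had 13.74, 13.66 and 13.79 against 11.89, 12.32 and 12.26, a difference of 1.57 ± 0.19 (limma adjusted p = 1.66e-06). Tjp1, a scaffold that sits beside gap junctions, was higher by 1.38 ± 0.19, and Ctnna3, the heart-enriched alpha-catenin, by 1.18 ± 0.22. Ctnna3 fell under the size threshold without naked mole-rat replicate 3 (0.88). Gjc1, the connexin of conducting tissue, had 6.69, 6.90 and 6.11 against 9.57, 9.58 and 9.20. It was lower by -2.88 ± 0.19 (limma adjusted p = 2.20e-09), and lower in naked mole-rat liver as well, by 2.07. Jup, plakoglobin of the desmosome, was lower by -1.47 ± 0.30, with naked mole-rat replicate 3 at 9.19 and the others at 10.60 and 10.64. Without that replicate the Jup difference was -0.99, just under the size threshold. The ventricular connexin gene Gja1 was not analysed here.

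Calcium handling genes had 7 of 20 members higher and 3 lower (50.0% called, median 0.28). Cacna1c, the pore of the L-type channel through which calcium enters with each beat, had 13.00, 13.22 and 12.86 in the naked mole-rats and 10.70, 10.32 and 10.68 in the guinea pigs. The groups were well apart, by 2.46 ± 0.20 (limma adjusted p = 2.02e-08), and scaled reads were 5.73-fold higher. Casq1, the skeletal calcium store protein, was higher by 3.0 ± 0.33, and S100a1, a calcium sensor that acts on the release channel and the calcium pump, by 2.66 ± 0.54. Cacna2d1, an auxiliary subunit of the L-type channel, was lower by -1.24 ± 0.19, as were Camk2d, the main cardiac calmodulin kinase, by -1.24 ± 0.19, and Atp2b1, a calcium pump of the cell membrane, by -1.15 ± 0.21. Ryr2, Atp2a2 and Pln of the store cycle were not called. Ryr2, the release channel, had 16.98, 16.76 and 17.20 against 16.43, 16.50 and 16.54, apart but by only 0.49 ± 0.24 (limma adjusted p = 0.085), and by 0.01 under quantile normalisation. Atp2a2, the calcium pump SERCA2, had a difference of -0.39 ± 0.24 (limma adjusted p = 0.17). Under quantile normalisation it was -1.0 and called (adjusted p = 0.00822). Pln, its inhibitor phospholamban, had a difference of 0.07 ± 0.26 (limma adjusted p = 0.814), which changed sign when single libraries were left out. Slc8a1, the sodium-calcium exchanger, was not analysed here.

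Of 17 action potential channel genes tested, 6 were higher and 1 was lower (41.2% called, median 0.64). Among the 15 above the limit in both species, 4 were higher and 1 lower (33.3% called, against 29.9% of all such genes). Kcnj5, a subunit of the potassium channel opened by acetylcholine, had 12.36, 12.51 and 12.60 against 9.02, 10.28 and 9.04, a difference of 3.05 ± 0.29 (limma adjusted p = 1.22e-07). The highest guinea pig value was in replicate 2, which had the most Myl4 reads among the guinea pigs. Kcnh2, the channel of the rapid repolarising current, had 10.58, 10.38 and 9.04 against 11.90, 11.30 and 11.81 and was lower by -1.67 ± 0.33 (limma adjusted p = 0.000315).

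Adrenergic and muscarinic signalling genes had 4 of 14 members higher and 3 lower (50.0% called, median -0.23). Among the 12 above the limit in both species, 3 were higher and 2 lower (41.7% called, against 29.9% of all such genes). Rgs6, given above, had 11.39, 10.96 and 11.78 against 6.48, 6.48 and 6.02. Rgs4, another regulator of G protein signalling, was higher by 2.88 ± 0.24. The 2 alpha-1 receptors of the list moved in opposite directions. Adra1a had 9.97, 9.86 and 9.23 against 7.72, 7.19 and 7.07, a difference of 2.36 ± 0.40 (limma adjusted p = 8.05e-05). Adra1b had 5.78, 5.81 and 6.22, near the floor, against 7.86, 7.57 and 8.42, a difference of -2.02 ± 0.23 (limma adjusted p = 9.31e-07). Pde4d, which breaks down cyclic AMP, and Adcy5, which makes it, were lower by -1.04 ± 0.28 and -1.02 ± 0.19. Both sat at the size threshold, with -0.78 for Pde4d without naked mole-rat replicate 1 and -0.79 for Adcy5 without replicate 3. The beta-1 receptor gene Adrb1 was not called, at 0.24 ± 0.34.

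Among cardiac stress and natriuretic peptide genes, 4 of 10 were higher and 2 were lower (60% called, median 0.73). Nppa, the atrial natriuretic peptide, had 13.58, 12.24 and 14.98 in the naked mole-rats and 8.65, 13.34 and 9.88 in the guinea pigs. Guinea pig replicate 2 was above naked mole-rat replicate 2, so the groups overlapped. The difference of 2.98 ± 1.07 was called (limma adjusted p = 0.0234), but adjusted p was 0.101 without naked mole-rat replicate 3, 0.138 without guinea pig replicate 1 and 0.0812 without guinea pig replicate 3. The highest Nppa of each species was in the library with the most Myl4 of that species, and the part of atrial tissue in the difference was not tested. Spp1, osteopontin, had 6.52, 7.5 and 7.46 against 11.32, 10.35 and 9.72 and was lower by -3.30 ± 0.35 (limma adjusted p = 3.98e-07). Timp1, an inhibitor of matrix proteases, was lower by -2.34 ± 0.24. The ventricular peptide gene Nppb was not analysed here.

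Cardiac transcription factors had 3 of 18 members higher and 2 lower (27.8% called, median 0.36). Tead1, the DNA-binding partner of the Hippo pathway's YAP, had 11.04, 10.90 and 10.81 against 8.76, 8.57 and 8.51. The difference was 2.30 ± 0.18 (limma adjusted p = 1.80e-08). Tbx20, a T-box factor of heart development, was higher by 1.78 ± 0.31, and Thrb, a thyroid hormone receptor, by 1.43 ± 0.18. Esrrg, a nuclear receptor that drives oxidative metabolism genes, was lower by -1.77 ± 0.21. Mef2d, a muscle factor, was lower by -1.36 ± 0.36, with naked mole-rat replicate 3 at 8.86 and the other 2 at 10.84 and 10.71, and without that replicate by -0.72, under the size threshold.

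**Figure D3:**
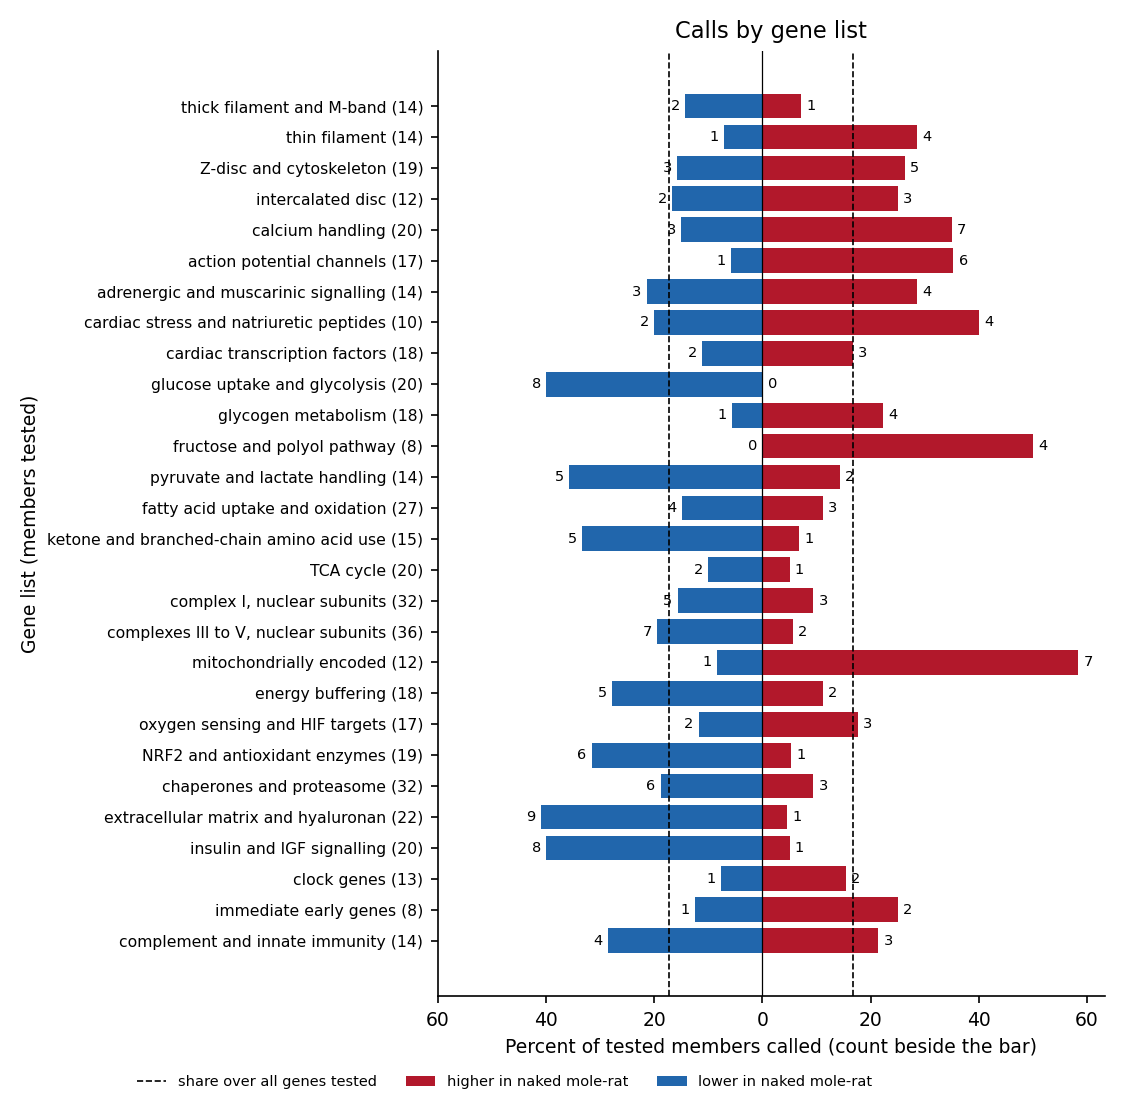
For each of 28 gene lists, the bars give the percent of its tested members called higher (red, to the right) or lower (blue, to the left) in the naked mole-rat heart, with the number of genes at the bar's end; dashed lines mark 16.8% and 17.3%, the shares over all genes tested. Glycolysis has 8 lower and 0 higher, extracellular matrix 9 lower and 1 higher, and the mitochondrially encoded genes 7 higher and 1 lower.

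Of 20 genes of glucose uptake and glycolysis tested, 8 were lower in the naked mole-rat and 0 were higher (40% called against 34.2% of all genes, median -0.77), and 14 of the 20 differences were negative. Of the 8, Aldoc and Pfkfb1 were under the limit in the naked mole-rat and passed the filter only through the guinea pig. Among the 18 members above the limit in both species, 6 were lower and 0 higher (33.3% called, median -0.60), close to the 29.9% called of all 9653 such genes. At an unadjusted limma p under 0.05, with no size threshold, 2 of the 20 were higher, and limma-voom on the recovered reads also called 0 higher. Hk1, the first enzyme of glycolysis, had 12.23, 12.12 and 12.34 in the naked mole-rats and 13.59, 14.13 and 14.43 in the guinea pigs. The difference was -1.82 ± 0.22 (limma adjusted p = 1.71e-06), or 3.68-fold fewer scaled reads. Hk2, the hexokinase that responds to insulin, was lower by -1.46 ± 0.23. Pgam1, phosphoglycerate mutase, had 10.89, 10.48 and 10.69 against 12.95, 12.50 and 12.73, a difference of -2.04 ± 0.20 (limma adjusted p = 2.27e-07). Aldoc, the brain-type aldolase, and Pfkfb1, which sets the activator of phosphofructokinase, were lower by -3.36 ± 0.17 and -2.60 ± 0.26, both from low levels in the naked mole-rat of 14.1 and 12.2 mean scaled reads. Ldha, the muscle-type lactate dehydrogenase subunit, was lower by -1.04 ± 0.26 (limma adjusted p = 0.00213). Its groups were apart, at 11.28, 11.33 and 11.04 against 12.55, 12.74 and 11.50, but the difference was under 1 without naked mole-rat replicate 3 (-0.95), guinea pig replicate 1 (-0.90) or guinea pig replicate 2 (-0.81). Slc2a4, the glucose transporter GLUT4, had -0.70 ± 0.22, which passed the p threshold (limma adjusted p = 0.00914) but not the size threshold. Slc2a1, GLUT1, had 0.28 ± 0.25 (limma adjusted p = 0.35).

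Glycogen genes had 4 of 18 members higher and 1 lower (27.8% called, median 0.54). With both species above the limit there were 17, of which 3 were higher and 1 lower (23.5% called, against 29.9% of all such genes). Pygl and Pygm, phosphorylases that release glucose units from glycogen, differed in opposite directions. Pygl was higher, as given above, while Pygm, the muscle form, had 11.51, 11.61 and 11.82 in the naked mole-rats against 13.52, 13.01 and 13.86. Every naked mole-rat was below every guinea pig for Pygm, with a difference of -1.82 ± 0.21 (limma adjusted p = 1.12e-06). Phkg2, a catalytic subunit of phosphorylase kinase known from liver and testis, was higher by 1.95 ± 0.24. Gys2, liver glycogen synthase, was higher by 1.76 ± 0.26, from 4.2 to 130 mean scaled reads, and Gys1, the muscle synthase, was not called at -0.37 ± 0.19. The guinea pig mean of Gys2, 5.78, was under the limit, so Gys2 passed the filter only through the naked mole-rat, which favours its call.

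All 8 genes of the fructose and polyol pathway were tested, 6 of them with both species above the limit, and 4 were higher and 0 lower (50.0% called, median 0.99). Among the 6, 2 were higher (33.3% called, median 0.27, against 29.9% called of all such genes). The number lower was also 0 at an unadjusted limma p under 0.05 and in limma-voom on the recovered reads. Slc2a5, the fructose transporter GLUT5, had 10.54, 10.56 and 9.87 in the naked mole-rats against 6.32, 5.98 and 6.08. Its difference was 4.2 ± 0.33 (limma adjusted p = 1.43e-08), or 100-fold in mean scaled reads. The guinea pig mean of 6.13 was under the limit, so Slc2a5 passed the filter only through the naked mole-rat, which favours its call. Khk, the ketohexokinase that phosphorylates fructose, had 8.81, 8.37 and 7.4 against 6.35, 6.53 and 6.58, a difference of 1.71 ± 0.29 (limma adjusted p = 9.10e-05). These levels stand beside those of genes that hepatocytes express strongly, which also differed. Alb, albumin, had 26192, 8650 and 25737 scaled reads in the naked mole-rat hearts against 899, 1629 and 321, and 3 of the 4 hepatocyte markers tested were higher and 1, Apoa1, was lower. The summed hepatocyte markers ran from 10398 to 29206 in the naked mole-rats and from 3796 to 5338 in the guinea pigs. Most of the guinea pig sum was Apoa1, at 3081, 3567 and 3424 scaled reads, against 455, 248 and 407 in the naked mole-rats. In the guinea pig, Apoa1 was lower in liver than in heart, as given below, so there the sum does not track hepatocyte genes alone.

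Reads relative to the library's recovered total (RPM) in the naked mole-rat heart were set against those in naked mole-rat liver for these genes. Alb stood at 1.09% of its liver level, Ttr at 0.998%, Fgb at 1.31% and Apoa1 at 1.39%. Slc2a2, a glucose and fructose transporter of liver, was at 1.66%, Gys2 at 3.30% and Khk at 4.62%. Pygl was at 69.5%, and Slc2a5 was at 335% of its liver level. The part of liver RNA in the heart values of Slc2a2, Gys2, Khk, Pygl and Slc2a5 was not tested. In the guinea pig, Slc2a5 stood at 573% of its liver level, above the naked mole-rat share, at means of 0.937 RPM in heart and 0.163 in liver, and Pygl at 2.05%. The liver mean of Slc2a5 rests on uneven libraries, with 898 scaled reads in 1 naked mole-rat liver and 176 to 243 in the other 3.

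**Figure D4:**
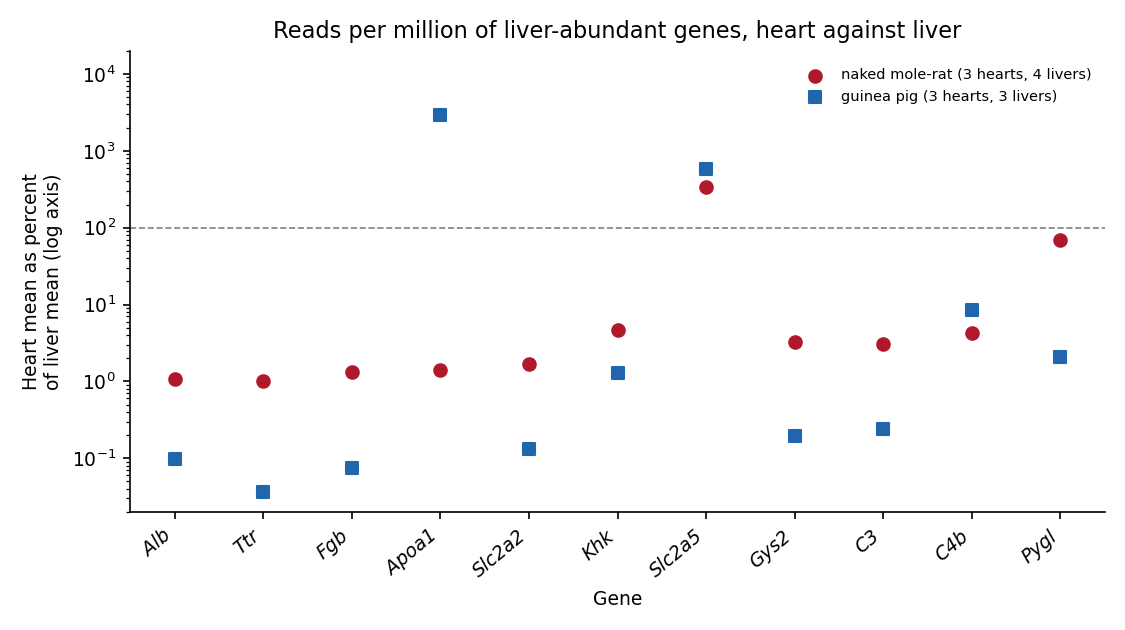
Mean RPM in heart as a percent of the mean in liver of the same species for 11 genes, on a log axis, with red circles for the naked mole-rat and blue squares for the guinea pig; the dashed line marks equal levels. In the naked mole-rat most genes lie between 0.998% and 4.62%, while Pygl is at 69.5% and Slc2a5 at 335%; in the guinea pig Slc2a5, at 573%, and Apoa1, whose liver level was 8.98 RPM, lie above the line.

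**Figure D5:**
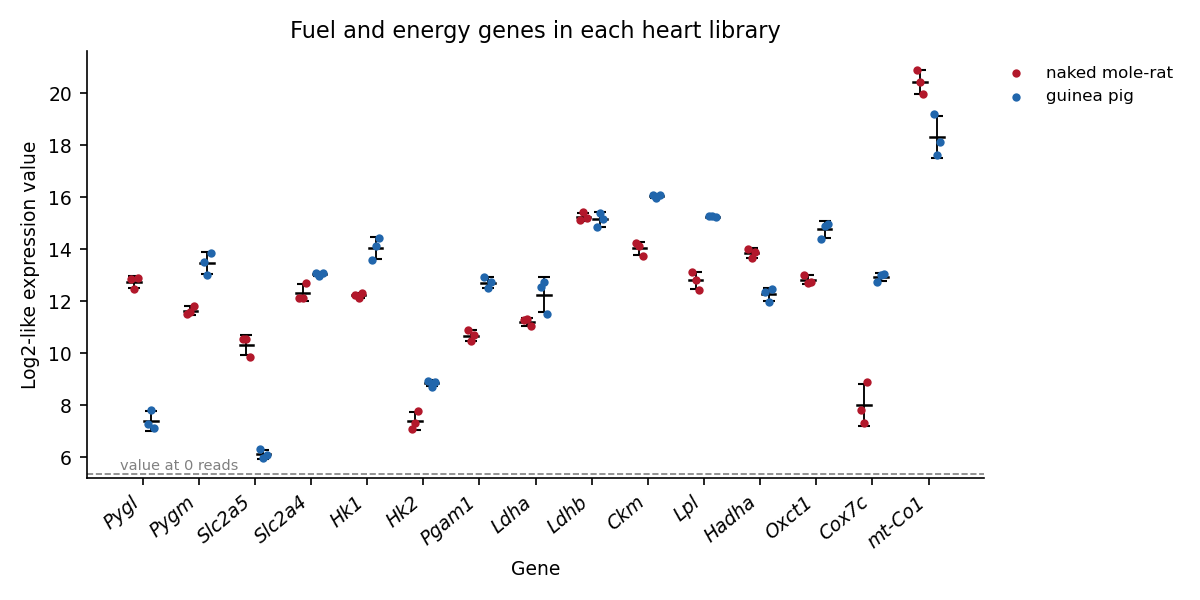
Log2-like value of 15 genes of glycogen, glucose, lactate, creatine, fat, ketone and respiratory chain metabolism in each heart library, with red points for the 3 naked mole-rats, blue points for the 3 guinea pigs, and the mean and SD as black bars; the dashed line is the value at 0 reads. Pygl, Slc2a5, Hadha and mt-Co1 are higher and Pygm, Hk1, Hk2, Pgam1, Ckm, Lpl, Oxct1 and Cox7c lower in every naked mole-rat than in any guinea pig, and Ldhb overlaps.

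Of 14 genes that handle pyruvate and lactate, 2 were higher and 5 lower (50.0% called, median -0.09). Slc16a1, the lactate transporter MCT1, had 10.27, 10.35 and 10.63 against 9.02, 9.17 and 8.79, a difference of 1.43 ± 0.18 (limma adjusted p = 2.96e-06), while Slc16a3, the transporter MCT4 of glycolytic cells, was lower by -1.96 ± 0.18. Pdha1, the catalytic subunit of pyruvate dehydrogenase, was lower by -1.36 ± 0.20. Of the kinases that switch this enzyme off, Pdk3 was higher by 1.26 ± 0.20 and Pdk1 lower by -2.17 ± 0.30. Pdk4 ranged from 9.32 to 12.23 among the guinea pigs alone, which left its difference of -0.07 ± 0.55 without a stable sign. Ldhb, the heart-type lactate dehydrogenase subunit, had 15.12, 15.42 and 15.19 against 14.87, 15.41 and 15.17 and a difference of 0.09 ± 0.24 (limma adjusted p = 0.761).

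Of 27 fatty acid genes, 3 were higher and 4 lower (25.9% called, median 0.41). The 2 subunits of the mitochondrial trifunctional protein, which carries out the last steps of long-chain oxidation, were both higher. Hadha had 14.01, 13.66 and 13.91 against 12.36, 11.97 and 12.47, a difference of 1.59 ± 0.21 (limma adjusted p = 7.28e-06), and Hadhb had a difference of 1.19 ± 0.26. Acadvl, the first dehydrogenase for long chains, was higher by 1.05 ± 0.23, but by only 0.94 without naked mole-rat replicate 1 and 0.90 without guinea pig replicate 1. Lpl, the lipase that frees fatty acids from blood lipids, had 13.13, 12.84 and 12.45 against 15.27, 15.27 and 15.25. The guinea pig values were nearly equal and all above the naked mole-rats, with a difference of -2.46 ± 0.26 (limma adjusted p = 4.15e-07) and 5.45-fold fewer scaled reads. Decr1, needed for unsaturated fatty acids, was lower by -2.15 ± 0.19, and Acsl1, which activates long chains, by -1.38 ± 0.24. The uptake genes Cd36 and Fabp3 and the carnitine transferases Cpt1a and Cpt1b were not called, with differences of 0.68, 0.31, 0.57 and 0.46. Cpt1a was at 1.05 and called without guinea pig replicate 3.

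Use of ketone bodies and branched-chain amino acids had 1 of 15 genes higher and 5 lower (40% called, median -0.12). Oxct1, the enzyme that lets the heart burn ketone bodies, had 13.03, 12.72 and 12.75 in the naked mole-rats against 14.40, 14.91 and 14.99. It was lower by -1.94 ± 0.25 (limma adjusted p = 4.58e-06). Ivd, of leucine breakdown, had 9.96, 9.85 and 10.28 against 12.07, 12.11 and 12.14 and was lower by -2.08 ± 0.16, and Bckdhb, of the branched-chain dehydrogenase, by -1.49 ± 0.20.

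The TCA cycle had the lowest share of calls among the 28 lists, with 1 of 20 genes higher and 2 lower (15.0%, median -0.24). Sdhd, a membrane anchor of succinate dehydrogenase, had 11.88, 11.69 and 12.00 against 10.17, 10.32 and 9.93, a difference of 1.72 ± 0.23 (limma adjusted p = 5.45e-06). Idh3a, of isocitrate dehydrogenase, was lower by -1.64 ± 0.20. Suclg2, of succinyl-CoA ligase, was lower by -1.05 ± 0.23, but by -0.74 without naked mole-rat replicate 3 and -0.97 without guinea pig replicate 2.

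Nuclear genes of the respiratory chain had more negative than positive differences. In complex I, 3 of 32 subunits were higher and 5 lower (25.0%, median -0.32), and 23 of the 32 differences were negative. Ndufa12 was higher by 2.01 ± 0.25 and Ndufa5 by 1.67 ± 0.30, while Ndufb4 was lower by -2.43 ± 0.22, Ndufc2 by -2.17 ± 0.28 and Ndufb6 by -1.98 ± 0.29. Ndufs8, a subunit with iron-sulfur clusters, was higher by 1.14 ± 0.29, but by 0.94 without guinea pig replicate 2. In complexes III to V, 2 of 36 were higher and 7 lower (25.0%, median -0.51), and 24 differences were negative. Cox7c, a small subunit of cytochrome oxidase, had 7.84, 7.31 and 8.89 against 12.76, 13.03 and 13.05. Its difference of -4.93 ± 0.31 (limma adjusted p = 1.12e-09) went with a difference of -3.24 in liver and with heart means of 13.38 in the Damaraland mole-rat and 13.04 in the mouse. Atp5e, the epsilon subunit of ATP synthase, was lower by -3.12 ± 0.42 and Atp5l, its subunit g, by -2.14 ± 0.43. Uqcr11, a small subunit of complex III, was higher by 1.69 ± 0.25 and Atp5j2, of ATP synthase, by 1.41 ± 0.25.

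The genes of the mitochondrial genome went the other way. Of 12 tested, 7 were higher and 1 was lower (66.7% called, median 1.78). Together they took 26.88%, 22.65% and 24.14% of the reads recovered over the genes of the table in the naked mole-rats. In the guinea pigs they took 17.99%, 5.42% and 7.4%. Reads outside the table are not part of these shares, and mt-Nd5 was not analysed here. The means were 24.56% ± 2.15 and 10.27% ± 6.76 (SD, n = 3 each), and every naked mole-rat was above every guinea pig. The exact two-sided permutation test gave p = 0.10, the smallest that 3 against 3 allows. mt-Co1, the core of cytochrome oxidase, had 20.89, 20.42 and 19.97 against 19.21, 17.63 and 18.12, a difference of 2.11 ± 0.50 (limma adjusted p = 0.00164). This fell to 0.98 under quantile normalisation (adjusted p = 0.0953). mt-Nd2 was higher by 2.45 ± 0.52, and by 1.60, still called, without naked mole-rat replicate 3 and guinea pig replicate 2 together. mt-Nd4l had 14.23, 13.58 and 15.19 against 14.14, 10.87 and 11.29, so guinea pig replicate 1 overlapped the naked mole-rats. Its difference of 2.23 ± 0.58 was called (limma adjusted p = 0.00314), with an adjusted p of 0.0963 without naked mole-rat replicate 3 and guinea pig replicate 2 together. mt-Nd6, the protein gene on the light strand, was lower by -1.07 ± 0.24, and by -0.95 without naked mole-rat replicate 2 and -0.90 without guinea pig replicate 1. Whether counting used strand is not given in the sources used here, so reads of mt-Nd6 and of transcripts opposite to it cannot be told apart.

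Among 18 genes that buffer energy, 2 were higher and 5 lower (38.9% called, median -0.32). Counting only the 17 above the limit in both species, 1 was higher and 5 lower (35.3% called, against 29.9% of all such genes). Ckm, the muscle creatine kinase, had 14.23, 14.13 and 13.75 in the naked mole-rats against 16.11, 15.97 and 16.10. The difference was -2.02 ± 0.21 (limma adjusted p = 4.72e-07), or 4.04-fold fewer scaled reads. Ak3, an adenylate kinase of the mitochondrial matrix, was lower by -2.32 ± 0.32, and Gamt, the last enzyme of creatine synthesis, by -1.93 ± 0.25. Ckmt2, the mitochondrial creatine kinase of the heart, had -0.74 ± 0.29 (limma adjusted p = 0.0339), under the size threshold, whereas Ckmt1, its counterpart in other tissues, was higher by 1.08 ± 0.25. The Ckmt1 difference was under 1 without naked mole-rat replicate 1 (0.88), naked mole-rat replicate 2 (0.99) or guinea pig replicate 1 (0.99). Ampd1, the AMP deaminase of skeletal muscle, was higher by 1.62 ± 0.15 from 2.11 mean scaled reads in the guinea pig.

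Oxygen sensing genes and targets of the hypoxia factor HIF had 3 of 17 members higher and 2 lower (29.4% called, median 0.19). Hif1a itself was not called, with 9.69, 9.90 and 10.73 against 10.53, 10.65 and 10.29 (-0.38 ± 0.25, limma adjusted p = 0.191). Arnt, its partner, had 10.55, 10.68 and 10.13 against 8.85, 8.49 and 9.20, a difference of 1.61 ± 0.21 (limma adjusted p = 4.42e-06). Vegfa, the vessel growth factor, was higher by 1.05 ± 0.30, but by 0.94 without naked mole-rat replicate 3 and by 0.97 without guinea pig replicate 1 or 2. P4ha2 and P4ha1, prolyl hydroxylases that mature collagen, differed in opposite directions, by 1.42 ± 0.20 and -1.27 ± 0.20. Bnip3, which marks mitochondria for removal, had 8.79, 8.55 and 8.65 against 10.78, 11.60 and 11.29 and was lower by -2.56 ± 0.24 (limma adjusted p = 1.38e-07). Mb, myoglobin, had 16.98, 16.90 and 14.98 against 16.36, 16.22 and 16.63. Naked mole-rat replicate 3 was the low library, and the difference of -0.11 ± 0.40 became 0.54 without it, neither called.

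Antioxidant enzymes and NRF2 targets had 1 of 19 members higher and 6 lower (36.8% called, median -0.56). Gsr, which regenerates glutathione, had 10.63, 10.35 and 10.10 against 8.46, 8.28 and 8.50, a difference of 1.95 ± 0.17 (limma adjusted p = 3.68e-08). Prdx5 and Prdx1, peroxiredoxins, were lower by -2.66 ± 0.22 and -2.59 ± 0.27. Gpx4, which removes lipid peroxides, had 8.32, 7.79 and 9.13 against 10.49, 10.43 and 10.85 and was lower by -2.18 ± 0.27 (limma adjusted p = 2.90e-06). Sod2, the mitochondrial superoxide dismutase, and Cat, catalase, passed the p threshold but not the size threshold, with -0.56 ± 0.21 (limma adjusted p = 0.0266) and -0.60 ± 0.24 (limma adjusted p = 0.0369).

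Chaperone and proteasome genes had 3 of 32 members higher and 6 lower (28.1% called, median -0.02). For the 30 above the limit in both species, 2 were higher and 5 lower (23.3% called, against 29.9% of all such genes). The cytosolic HSP90 genes differed in opposite directions, with Hsp90aa1 near 0 as given above and Hsp90ab1 at 14.77, 14.70 and 14.78 against 13.45, 13.54 and 14.15. The Hsp90ab1 difference of 1.04 ± 0.22 (limma adjusted p = 0.000518) was 0.91 without guinea pig replicate 1, 0.95 without guinea pig replicate 2 and 0.89 under quantile normalisation. Dnaja1, a partner of HSP70, was the reverse of Hsp90aa1, with 1208, 1455 and 1267 scaled reads in the naked mole-rats and 1.30, 2.30 and 0 in the guinea pigs. Dnaja1 was near 0 in guinea pig liver as well, at 5.15 mean scaled reads against 2613. Hspe1, the mitochondrial cochaperonin, was higher by 1.75 ± 0.33. Hspb1, a small heat shock protein abundant in muscle, had 12.15, 11.73 and 11.05 against 13.43, 13.70 and 13.12 and was lower by -1.77 ± 0.28 (limma adjusted p = 3.88e-05).

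In the extracellular matrix, 9 of 22 genes were lower and 1 was higher in the naked mole-rat (45.5% called, median -0.75), and 17 of the 22 differences were negative. Col5a1, a chain of the collagen that starts fibrils, had 8.09, 8.68 and 7.01 against 11.62, 12.53 and 11.68, a difference of -4.02 ± 0.42 (limma adjusted p = 3.82e-07). Lum, lumican, a proteoglycan that spaces collagen fibrils, had 6.97, 7.39 and 8.69 against 11.99, 11.54 and 10.71 and was lower by -3.73 ± 0.38. Col3a1, the chain of type III collagen, had 12.48, 13.76 and 13.53 against 15.01, 16.38 and 14.82, which put every naked mole-rat below every guinea pig (-2.14 ± 0.55, limma adjusted p = 0.00271). Bgn, biglycan, was the higher gene, at 10.20, 10.19 and 11.65 against 9.07, 10.40 and 9.04. Its groups overlapped, and the call (1.17 ± 0.41, limma adjusted p = 0.0193) was lost without naked mole-rat replicate 3 (adjusted p = 0.122) or guinea pig replicates 1 (0.0855) or 3 (0.0879), with only the 6 libraries in the fit (0.054), and with the replicate number added to that fit as a block (0.0627). Of 5 fibroblast markers tested, 2 were lower, Dcn and Lum, and 0 were higher, which also held at an unadjusted limma p under 0.05 and for the calls of limma-voom. Their sum ran from 3344 to 7827 scaled reads in the naked mole-rats and from 8295 to 14118 in the guinea pigs. Dcn and Lum are also members of the matrix list. Pdgfra, a defining fibroblast receptor, had 819 to 1174 against 1390 to 1911. The other markers had positive differences and were not called, with 0.62 ± 0.36 for Postn (1163, 2050 and 3741 scaled reads against 1467, 1293 and 1242) and 0.29 ± 0.41 for Tcf21. The part of fibroblast number in the matrix differences was not tested. The guinea pigs were also the younger animals.

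Insulin and IGF signalling genes had 1 of 20 members higher and 8 lower (45.0% called, median -0.11). For the 19 above the limit in both species, 1 was higher and 7 lower (42.1% called, against 29.9% of all such genes). Igf1r, the receptor of IGF1, had 10.59, 10.82 and 10.47 against 9.37, 9.38 and 9.76, a difference of 1.12 ± 0.24 (limma adjusted p = 0.000727). Igf2, the fetal growth factor, had 10.69, 10.73 and 10.44 against 13.23, 13.39 and 13.48, a difference of -2.74 ± 0.26 (limma adjusted p = 1.56e-07) and 6.99-fold fewer scaled reads. Igfbp3, which binds IGFs in blood and tissue, was lower by -2.14 ± 0.36.

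Of 13 clock genes, 2 were higher and 1 lower (23.1% called, median 0.38). Counting only the 12 above the limit in both species, 1 was higher and 1 lower (16.7% called, against 29.9% of all such genes). Tef, an output factor of the clock, had 10.19, 10.62 and 11.13 against 8.48, 8.32 and 7.92, a difference of 2.41 ± 0.28 (limma adjusted p = 1.48e-06), and Npas2, a partner of BMAL1, was higher by 1.62 ± 0.29. Hlf, a relative of Tef, sat at the size threshold, at -1.01 ± 0.22, and fell under it in several alternatives. The hour of tissue collection is not given in the labels. Of 8 immediate early genes, 2 were higher and 1 lower (37.5% called, median 0.24). With both species above the limit there were 7, of which 2 were higher and 0 lower (28.6% called, against 29.9% of all such genes). Egr1 had 10.28, 10.63 and 9.14 against 7.48, 7.39 and 7.29 (2.63 ± 0.35, limma adjusted p = 5.89e-06), and Fos was higher by 2.20 ± 0.23, whereas Atf3, a stress-induced repressor, was lower by -1.78 ± 0.21.

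Complement and innate immunity genes had 3 of 14 members higher and 4 lower (50.0% called, median -0.16). C3, the central complement protein, had 12.77, 12.95 and 12.29 in the naked mole-rats against 7.96, 9.34 and 8.07. The groups were far apart, with a difference of 4.21 ± 0.51 (limma adjusted p = 2.20e-06) and 21-fold more scaled reads. C4b, of the classical pathway, had 11.71, 11.86 and 11.60 against 7.61, 9.12 and 7.35, a difference of 3.69 ± 0.41 (limma adjusted p = 7.18e-07). Both are made in quantity by liver, and in naked mole-rat heart they stood at 3.06% and 4.21% of their liver RPM, against 1.09% for Alb; the part of liver RNA was not tested. C2 was higher by 1.02 ± 0.30, and by 0.90 without naked mole-rat replicate 2 and 0.99 without guinea pig replicate 3. Serping1, the inhibitor of the first complement enzyme, was lower by -2.02 ± 0.28, Cfd, an enzyme made by fat cells, by -1.95 ± 0.42, and C1qb, a macrophage product, by -1.62 ± 0.38. The 5 adipocyte markers, Cfd itself among them, summed to 928 to 1589 scaled reads against 1689 to 4206. Most of that sum was Fabp4, at 892 to 1485 against 1447 to 3429, which was not called (-0.87 ± 0.26). Adipoq, Plin1 and Lep were too rare to be tested. Plin1 had 3.38, 8.43 and 11.1 against 1.95, 3.07 and 2.37, and Adipoq had 5.07, 5.84 and 51.9 against 5.2, 27.6 and 0.788.

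The heart calls were set beside the same comparison in liver, from 4 naked mole-rats and 3 guinea pigs, where 4177 of 10807 genes were called (38.7%). The 2 tables were normalised separately, and several animals gave both tissues. Of 10072 genes tested in both, 3329 (33.1%) were called in heart and 3748 (37.2%) in liver. In 1638 of them the call had the same sign, 773 higher and 865 lower in the naked mole-rat, which is 49.2% of the heart calls and 43.7% of the liver calls. Opposite signs were found for 198 genes, of which 84 were higher in naked mole-rat heart and 114 lower. Ahnak, Macf1, Gjc1, Cox7c and Oxct1 were among the genes called the same way in both tissues. Ttn was lower in both, by -1.94 in heart and -2.11 in liver, at mean liver levels of 28.1 and 246 scaled reads. Pygm, Hk1, Ckm, Lpl, Bnip3, Tnnt1 and Kcnj5 were called in heart and not in liver, with liver differences between -0.77 and 0.89, and whether heart and liver differed was not tested for them. Several were little read in liver, where the scale compresses differences. Kcnj5 had 11.1 to 15.9 scaled reads in naked mole-rat livers and 7.44 to 25.2 in guinea pig livers. Pygm had 15.9 to 33.4 and 17.6 to 79.7, and Lpl 34.7 to 85.7 and 41.4 to 86.0. Bnip3 was well read, at 2040 to 2627 and 1083 to 1343.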

How the data were processed

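Total RNA depleted of ribosomal RNA was sequenced from heart and liver of 4 rodent species. The submitters' processing notes name cutadapt, Salmon, DESeq2 and the mouse build GRCm38. The deposited values are variance-stabilised, log2-like values from the authors, with 1 table per tissue. Whether they were corrected for gene length is not given in the sources used here. How genes were matched across species is not given in the sources used here. The tables hold 26 columns of other series, which were not used. Of 13928 mouse gene identifiers, 13921 were matched to a symbol. Inverting the transform gave whole reads for 100% of values (tolerance 0.01). Depth over the table's genes, scaled reads and RPM (reads relative to the library's recovered total) were taken from them.

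Genes with a mean over the 6 libraries at least 1 above the floor (20.6 scaled reads) entered limma (version 3.58.1, R 4.3.3), which estimated a mean per species from all 14 heart libraries with trended empirical Bayes variances, and p-values were adjusted by Benjamini-Hochberg across all of them. A call needed an adjusted p under 0.05 and a difference of at least 1. Liver was fitted alone in the same way. On simulated counts for this comparison with 10914 genes tested, 94.6% of 4-fold and 24.2% of 2-fold changes were called, and 0 of 10722 unchanged genes. The simulation gave every gene the same relative spread between animals. It held no outlying library and no difference between species in how reads were assigned. It therefore gives no rate of false calls for the real libraries.

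Genes named are the 10 largest called differences in each direction with groups apart and both means above the limit, the 5 with the highest mean in the other species among called genes under the limit in 1 species, up to 3 largest calls per direction in each of 28 gene lists, and a set of common heart genes. A few genes that this rule names are not reported here and remain in the counts. Members, lists and rules were chosen with earlier results of these data known. Same-numbered animals did not deviate together, so numbers do not pair the animals. Alternatives covered the size threshold, filter, scaling, variance model, replicate block, depth, voom on recovered reads and leaving out each library. A fit without both libraries richest in atrial reads was chosen after seeing the data.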

Additional observations from a re-analysis of the deposited data

Results flagged for a closer look

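Some of the genes named above were called in heart with 1 sign and in liver with the other, and the difference between the tissues was not tested. Scnn1a was lower in naked mole-rat heart (-5.14) and higher in naked mole-rat liver, by 1.58 ± 0.21 (SE). Adra1b was likewise lower in heart (-2.02) and higher in liver, by 3.21 ± 0.30, and Adra1a was higher in heart (2.36) and lower in liver, at -1.42 ± 0.21. The alpha-1 receptors therefore had opposite signs to each other in both tissues. Myh7b was higher in heart (4.10) and at -3.41 ± 0.27 in liver, from 26.8 and 622 mean scaled reads in the naked mole-rat and guinea pig livers. Slc16a1 was higher in heart (1.43) and lower in liver (-1.02 ± 0.23), and P4ha2 was higher in heart (1.42) and lower in liver (-1.94 ± 0.19). Ivd was lower in heart (-2.08) and higher in liver (1.27 ± 0.21), as was Fhl2, at -2.12 in heart and 1.01 ± 0.41 in liver.

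A single library lay far from the rest of its group in 5 of 43 groups checked, and chance alone flags about 1 in 20 groups. All 5 were outside the 6 hearts compared, which does not show that those hearts were free of outlying values. Mef2d, for example, had 8.86 in naked mole-rat heart replicate 3 and 10.84 and 10.71 in replicates 1 and 2. Slc2a5 had 55.4 RPM in naked mole-rat liver replicate 3 and 11.7 to 14.6 in the other 3 livers, and C4b had 6910 in replicate 4 and 4434 to 4674 in the others. In the Damaraland mole-rat hearts, Pon3 had 6.60 in replicate 4 and 7.03 to 7.16 in the others, Wdr62 had 6.86 in replicate 4 and 6.55 to 6.63 in the others, and Gpr158 had 7.66 in replicate 5 and 8.30 to 8.34 in the others.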

How the results depend on the processing

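The count of 3652 calls (1801 higher, 1851 lower) moved by over 1.5 times in 3 ways. Without the size threshold it was 6639 (3316 higher, 3323 lower), with 291 calls in the lists and 3576 shared with liver. The stricter test that a difference exceeds 1 left 1752 (840 and 912), with 85 in the lists, and only genes above the table median gave 2263 (1055 and 1208), since fewer were tested. Voom on the recovered reads gave 4890 and reads thinned to the shallowest library 3665. Leaving out 1 library gave 3638 to 3723 calls, and leaving out the 2 libraries richest in atrial reads 3728. Of 154 named genes called, 103 kept the call under each of the 20 alternatives in which they were tested. Leaving that stricter test aside, 131 did so, and the other 23 lost the call elsewhere, as given beside the main ones. Genes under the limit in 1 species, such as Cplx1, Ndufa4 and Slc2a5, were not tested under the filter that both species must pass. Some rare genes, such as Dnaja1 and Aldoc, were also not tested above the table median. The 10 named genes whose sign changed were all not called. Besides genes that only the size threshold kept out, 4 named genes gained a call, Actc1 (-1.22) and Atp2a2 (-1.0) under quantile normalisation and Myh7 (1.16) and Cpt1a (1.05) without guinea pig replicate 3.

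The difference was -0.24 for Myh7, -0.29 for Myl2 and -0.22 for Tnnt2 under quantile normalisation. With libraries centred on their medians Tnni3 was 0.01, and on thinned reads 0.03. With sample weights Tnni3 was 0.12, Pln -0.01, Pdk4 0.06 and Mb 0.47. Without naked mole-rat replicate 3 Tnni3 was 0.13, Pln -0.02, Pdk4 0.04 and Mb 0.54. Without naked mole-rat replicate 1 Fabp3 was -0.05 and Adrb1 -0.01, and Adrb1 was -0.01 without replicate 2. Without guinea pig replicate 1 Tnni3 was 0.02, Tnnt2 -0.11 and Ldhb -0.05. Pln was -0.01 without guinea pig replicate 2 and -0.06 without replicate 3, where Pdk4 was 0.84. Without both atrial-rich libraries Tnni3 was 0.09, Pln -0.10 and Mb 0.45. Leaving out 1 library gave ranges of -0.11 to 0.13 for Tnni3, -0.11 to 0.58 for Tnnt2, -0.06 to 0.29 for Pln, -0.05 to 0.22 for Ldhb, -0.05 to 0.64 for Fabp3, -0.61 to 0.84 for Pdk4, -0.46 to 0.54 for Mb and -0.01 to 0.75 for Adrb1. The cause of these changes was not tested.

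With the replicate number as a block on the 6 libraries, 3640 genes were called (1796 higher, 1844 lower). Same-numbered animals had correlations of deviations of -0.086, -0.087 and -0.259, so the numbers gave no pairing. Depth limits the rare genes: naked mole-rat replicate 3 had 12.9% of genes at 0 reads.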

Other observations

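Of 6 endothelial markers tested, 1 was higher and 1 lower in the naked mole-rat heart, and their summed scaled reads overlapped, at 14983 to 18403 against 14380 to 18740. Vwf, the clotting factor stored by endothelial cells, had 8707, 9368 and 8775 scaled reads against 2400, 2514 and 2065 and was higher by 1.91 ± 0.31 (SE, limma adjusted p = 5.28e-05). Pecam1, a junction protein of the same cells, had 1206, 1519 and 2437 against 3477, 3900 and 4377 and was lower by -1.20 ± 0.22 (limma adjusted p = 0.000141). Kdr and Cdh5 also had every naked mole-rat below every guinea pig and passed the p threshold but not the size threshold, with -0.96 ± 0.24 (limma adjusted p = 0.00257) and -0.87 ± 0.17 (limma adjusted p = 0.000344). Tek had -0.51 ± 0.23 and Tie1 0.21 ± 0.27, so Vwf was the 1 marker far above the guinea pig in the sums. Of 6 markers of smooth muscle and pericytes, 1 was higher and 1 lower. Myh11, smooth muscle myosin, had 2659, 2897 and 2523 scaled reads against 463, 877 and 867, and Rgs5, a pericyte gene, had 1922, 1645 and 4808 against 9874, 9710 and 8878. The differences were 1.81 ± 0.26 and -1.90 ± 0.33.

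Genes with symbols of cytosolic ribosomal proteins, taken after the values were seen and with no test of the group, had 72 members tested. Of these, 2 were higher, 14 lower and 56 not called, with a median difference of -0.18. Over all genes tested, 16.8% were higher and 17.3% lower. The symbols also took in like-named genes such as Rpl7l1, 1 of the 2 higher, and Rpl22l1, 1 of the 14 lower. Of the 14, 3 were under the limit in naked mole-rat heart only, Rpl4, Rpl8 and Rps13, and all 3 were also under it in naked mole-rat liver. The other 11 had differences of -1.02 to -1.69. In guinea pig heart, 0 of these genes were under the limit alone.

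Apoa1, the main protein of high-density lipoprotein, had 231 to 288 RPM in the guinea pig hearts and a mean of 8.98 in the guinea pig livers, whereas in the naked mole-rat it had 17.0 to 28.2 in heart and a mean of 1733 in liver.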
